A study of Mus musculus with 12 samples.

Results

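The genes described here are 8 genes commonly used to recognise astrocytes (Gfap, Aqp4, Slc1a2, Slc1a3, Aldh1l1, Gja1, S100b and Glul) together with Agt and Sparc, which astrocytes also transcribe. They are 10 of the 55385 genes in the expression table and were taken by symbol. Agt and Sparc were chosen by their pattern over these libraries, so their values are a description and carry no test. The other 8 were chosen as astrocyte genes. Per the study, whole brains of male C57BL/6J mice, 8 weeks old at the start, were taken after perfusion with saline. Each of 12 mice gave 1 library of poly(A) RNA. The C_W mice were given water without stress and the C_O mice krill oil without stress, while the MS_W mice were given water and the MS_O mice krill oil under chronic unpredictable mild stress (CUMS). CUMS exposes mice to changing mild stressors such as restraint, damp bedding and strobe light, and krill oil is a marine oil rich in phospholipids with n-3 fatty acids. Krill oil was given by gavage at 200 mg/kg per day for 5 weeks, CUMS lasted 4 weeks, and each group had 3 mice. Libraries are named by group and mouse number, such as MS_W95. Nothing was sorted, so that in such bulk tissue fewer cells of a type and less RNA per cell cannot be told apart.

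Astrocytes tile the whole brain and serve the neurons around them. They clear glutamate from the synapse and turn it into glutamine, pass water and potassium along their processes to the blood vessels, and are joined to each other by gap junctions. Their genes also differ by brain region: Agt is known as a gene of astrocytes outside the telencephalon, Slc1a3 as the dominant glutamate transporter of the Bergmann glia of the cerebellum, and Slc1a2 as that of forebrain astrocytes. S100b is made by some oligodendrocytes as well, and Sparc by endothelial cells and fibroblasts.

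In the table's mm10 (GRCm38) coordinates, Agt lay at chr8:124556534-124569706 on the minus strand with 2 transcripts, and Sparc at chr11:55394500-55423183 on the minus strand with 9. Gfap lay at chr11:102887336-102897200, Slc1a2 at chr2:102658659-102790784 and Slc1a3 at chr15:8634124-8710764. Aldh1l1 lay at chr6:90486427-90600203, Gja1 at chr10:56377330-56402513, S100b at chr10:76253853-76261159 and Glul at chr1:153899944-153909723. Exons of Slc1a2, Aldh1l1 and Glul overlap those of other genes (Gm13872; Gm15756 and Gm45901; Mir8114 and Teddm2), whose reads may not be separable. The other 7 members share no exon with another gene.

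Agt and S100b, along with Sparc, had the largest excess of the 10 genes in 2 libraries, C_O72 and MS_W95, and for that reason the 250 bases before the RefSeq start of Agt and of S100b (GRCm38.p6, 5′ to 3′) are shown. Capitals mark matches, on either strand, to the letters searched: CCAAT for the box of that name, TATAAA for the box bound by the TATA-binding protein, AGAACA for a half-site of the glucocorticoid receptor, TGANTCA for AP-1 factors and TTCNNNGAA for STAT factors. The Agt window is chr8:124569707-124569956 on the minus strand and the S100b window chr10:76253586-76253835 on the plus strand.
Agt: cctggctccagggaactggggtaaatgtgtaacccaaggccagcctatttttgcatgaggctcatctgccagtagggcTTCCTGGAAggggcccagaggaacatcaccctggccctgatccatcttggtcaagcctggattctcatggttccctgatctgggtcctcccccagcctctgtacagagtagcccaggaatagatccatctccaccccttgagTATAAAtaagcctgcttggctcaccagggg
S100b: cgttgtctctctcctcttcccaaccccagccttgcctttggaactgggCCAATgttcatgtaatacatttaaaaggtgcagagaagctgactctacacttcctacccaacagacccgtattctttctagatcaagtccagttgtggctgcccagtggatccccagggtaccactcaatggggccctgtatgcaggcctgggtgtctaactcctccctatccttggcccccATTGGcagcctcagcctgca
The Agt window held TATAAA at positions -30 to -25 from the start, a motif found in 12.4% of 32851 promoter windows of this length, and TTCNNNGAA at -172 to -164, found in 7.02%. The S100b window held CCAAT on the plus strand at -202 to -198 and on the minus strand at -20 to -16, and 33.8% of windows held at least 1 copy. No AGAACA was in either window (16.1% of all windows) and no TGANTCA (6.75%). The Sparc window is not shown because 210 of its 250 bases lie in an exon of the GENCODE M21 annotation. It held AGAACA on the minus strand at -78 to -73 and on the plus strand at -14 to -9.

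Over the 21393 genes tested, those with an average of 0.1 FPKM or more, C_O72 and MS_W95 differed from the remaining libraries. Their correlation with each other was 0.97 and with any other library at most 0.937, whereas the other 10 correlated with each other at 0.959 or more. The homeobox gene Hoxc4, a gene of the posterior neural tube, was at 4.51 FPKM in C_O72 and 1.82 in MS_W95 and was listed at 0.0001, the authors' entry for no signal, in the other 10. Estimated counts summed to between 50912906 and 75678721 per library, and each of the 3 C_W libraries (69768244 to 75678721) was deeper than each of the 3 MS_W libraries (51748181 to 61608502), so that depth and stress cannot be told apart between those groups.

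FPKM is scaled by transcript length, so levels may be compared between genes. In the 3 C_W libraries the order was the same from the highest to the seventh gene: Glul (429 ± 50.7 FPKM, SD, n = 3), Slc1a2 (126 ± 7.79), S100b (72.9 ± 3.69), Slc1a3 (49.9 ± 3.23), Sparc (36.1 ± 6.02), Gfap (25.2 ± 4.81) and Aldh1l1 (13.1 ± 1.96). Gja1 (10.6 ± 0.795 FPKM) and Aqp4 (10.4 ± 0.566) followed and changed places between these libraries. Agt was the lowest of the 10 (2.75 ± 0.65 FPKM). Glul was the highest member in all 12 libraries. Agt was the lowest in 8 of 12, the seventh in MS_W31 and MS_W75 and the fifth in C_O72 and MS_W95. The ratio of the highest to the lowest library was 37 for Agt and 9.96 for Sparc, against 1.54 for Glul and 1.75 for Aldh1l1.

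**Figure D1:**
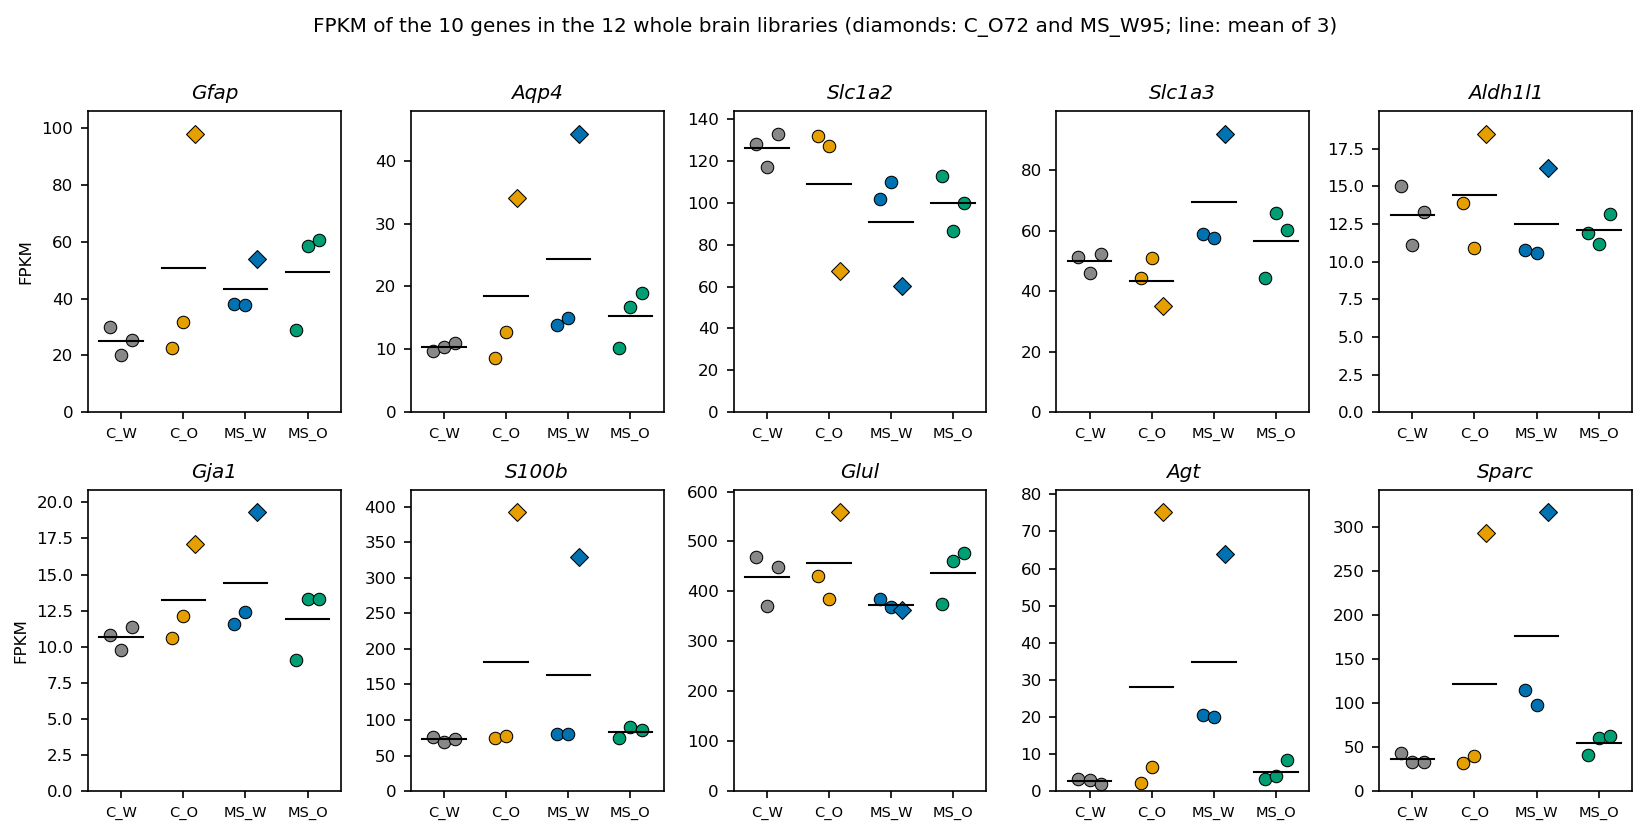
Each panel plots the FPKM of 1 gene (y axis, linear from 0) in the 12 libraries, grouped on the x axis by C_W, C_O, MS_W and MS_O, with diamonds for C_O72 and MS_W95 and a line at the mean of 3 mice. Agt lies between 2.03 and 8.24 FPKM in 8 libraries, at 20.0 and 20.5 in MS_W75 and MS_W31 and at 63.8 and 75.1 in the 2 diamonds, while Glul stays between 363 and 558 throughout.

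Agt encodes angiotensinogen, the precursor from which renin and the converting enzyme release angiotensin peptides. It was at 3.3, 2.93 and 2.03 FPKM in C_W1, C_W64 and C_W70. In the CUMS mice given water it was at 20.5, 20.0 and 63.8 FPKM in MS_W31, MS_W75 and MS_W95. All 3 MS_W libraries thus lay above all 3 C_W libraries, and the ratio of the group means was 12.6, or 7.35 without MS_W95. Under krill oil without stress Agt was at 2.2, 6.58 and 75.1 FPKM in C_O15, C_O30 and C_O72, so that the C_O group spanned nearly the whole range of the gene. With CUMS and krill oil it was at 3.25, 4.06 and 8.24 FPKM in MS_O13, MS_O46 and MS_O78, all below every MS_W library (ratio of means 0.149, or 0.256 without MS_W95).

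Sparc encodes a secreted collagen-binding glycoprotein of the extracellular matrix. Its FPKM was 43.0, 32.4 and 32.9 in C_W1, C_W64 and C_W70. In MS_W31, MS_W75 and MS_W95 it was 115, 97.6 and 316. The MS_W group was higher without overlap, with a ratio of means of 4.88, or 2.95 without MS_W95. Sparc was at 31.7, 39.6 and 293 FPKM in C_O15, C_O30 and C_O72, and at 40.7, 59.9 and 62.3 in MS_O13, MS_O46 and MS_O78. The MS_O values lay below every MS_W value (ratio of means 0.308, or 0.511 without MS_W95) and, once C_O72 was left out, above both remaining C_O values, as 19% of genes were in those libraries.

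Agt and Sparc had the same 3 levels, with 8 libraries low, MS_W31 and MS_W75 between and C_O72 and MS_W95 high, but their proportion was not constant. The ratio of Sparc to Agt in FPKM ran from 6.02 to 16.2 in the 8 low libraries and from 3.9 to 5.6 in the 4 others, since Agt was spread more widely than Sparc. On the log2(FPKM + 1) scale, the difference between CUMS and no CUMS under krill oil minus that under water was -4.13 for Agt and -2.49 for Sparc, or -2.27 and -0.96 without C_O72 and MS_W95.

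Among the 8 astrocyte genes, the 2 glutamate transporters lay on opposite sides in the C_W and MS_W groups. Slc1a2 (GLT-1), which removes most synaptic glutamate in the forebrain, was at 128, 117 and 133 FPKM in C_W1, C_W64 and C_W70 and at 102, 110 and 60.1 in MS_W31, MS_W75 and MS_W95. All MS_W values were below all C_W values. Slc1a3 (GLAST) was at 51.4, 46.2 and 52.2 FPKM in the C_W libraries and at 58.8, 57.5 and 92.1 in the MS_W libraries, without overlap and in the other direction. The ratio of Slc1a2 to Slc1a3 was 2.49 to 2.54 in the C_W libraries and 1.74, 1.92 and 0.653 in MS_W31, MS_W75 and MS_W95. In the krill oil groups the ratio was 2.98, 2.49 and 1.92 in C_O15, C_O30 and C_O72 and 2.56, 1.32 and 1.66 in MS_O13, MS_O46 and MS_O78, so that both MS_O46 and MS_O78 had a lower ratio than any C_O library. Glul, the glutamine synthetase that consumes the glutamate taken up, was at 371 to 468 FPKM in C_W and 363 to 385 in MS_W, and the groups overlapped.

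Gfap encodes the intermediate filament protein by which astrocytes are stained. It was at 29.9, 20.2 and 25.4 FPKM in the C_W libraries and at 38.3, 37.8 and 53.8 in the MS_W libraries, without overlap. In C_O15, C_O30 and C_O72 it was at 22.5, 31.9 and 98.1 FPKM and in MS_O13, MS_O46 and MS_O78 at 29.0, 58.7 and 60.8. MS_O13 lay inside the range of the C_W libraries and the other 2 MS_O libraries above it. Aqp4, the water channel of astrocyte endfeet, was at 9.82, 10.4 and 11 FPKM in C_W and 13.9, 15.0 and 44.3 in MS_W, and at 8.57, 12.7 and 34.0 in C_O and 10.2, 16.8 and 18.9 in MS_O. The libraries with the highest Aqp4 were again MS_W95 and C_O72.

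S100b, a calcium-binding protein gene, was within 69.3 to 89.6 FPKM in 10 libraries and at 392 and 329 in C_O72 and MS_W95. Gja1, the connexin 43 gene, was at 9.78 to 11.4 FPKM in C_W and at 11.6, 12.4 and 19.3 in MS_W31, MS_W75 and MS_W95, and its C_O (10.6 to 17.1) and MS_O (9.08 to 13.3) ranges overlapped. Aldh1l1, a folate enzyme used as a general astrocyte marker, was at 11.1 to 15.0 FPKM in C_W, 10.8, 10.6 and 16.2 in the MS_W libraries, 10.9 to 18.5 in C_O and 11.2 to 13.2 in MS_O. With all 12 libraries, Aldh1l1 overlapped between every pair of groups. Relative to it, Agt was at 0.153 to 0.264 in the C_W libraries and at 1.9, 1.89 and 3.93 in MS_W31, MS_W75 and MS_W95.

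The difference between the C_W and MS_W groups addresses the effect of CUMS without krill oil. By limma on log2(FPKM + 1), with Benjamini-Hochberg adjustment over all tested genes, 0 of the 8 astrocyte genes passed an adjusted p of 0.05, where 0.00467% of tested genes (1 gene) did. None had an unadjusted p under 0.05 by limma either (10.5% of tested genes did). By edgeR and by DESeq2 on the estimated counts 0 of 8 passed the adjusted threshold too, with 0 and 1 (Aqp4) at an unadjusted p under 0.05. The share of all genes called by edgeR or DESeq2 was not counted. Of the 8, 5 (Gfap, Aqp4, Slc1a3, Gja1 and S100b) were higher in MS_W without overlap of the groups, as were 16.3% of all tested genes, and Slc1a2 was lower without overlap, as were 8.22%. The log2 fold change (log2FC, MS_W minus C_W on the log2(FPKM + 1) scale, here with its limma adjusted p) was largest for Aqp4, at 0.96 (SE 0.504, adjusted p = 0.528). It was 0.81 for S100b (SE 0.648, adjusted p = 0.647 by limma), 0.76 for Gfap (SE 0.469, adjusted p = 0.574) and -0.51 for Slc1a2 (SE 0.277, adjusted p = 0.538). Slc1a3 (0.44), Gja1 (0.38), Glul (-0.2) and Aldh1l1 (-0.08) had smaller differences. None of the 8 met the criteria of a differentially expressed gene (DEG) that the study used, a log2 ratio of mean FPKM beyond 1 in either direction with an unadjusted p under 0.05, which 2.5% of tested genes met in the higher and 2.1% in the lower direction. The median log2FC of the 8 was 0.41 and that of all tested genes 0.062. Agt (3.05) and Sparc (2.06), chosen by their pattern, are not in that median. A linear model per gene was also fitted with Ballgown's library size covariate. That covariate sums the log2(FPKM + 1) values of a library below their upper quartile and is not its count total. The log2FC was then below 0 for Gfap (-1.17), Gja1 (-0.28) and S100b (-0.51), and that of Aldh1l1 was -1.52. The median of the 8 was then -0.62, while Agt was at 1.02 and Sparc at 0.4.

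Without C_O72 and MS_W95, the S100b difference between C_W and MS_W was 0.13 (SE 0.094) in place of 0.81, and the median log2FC of the 8 was 0.15, against 0.046 over all genes tested. Agt was at 2.52 and Sparc at 1.54 in these libraries, as a description. Gfap was at 0.59 (SE 0.31), Aqp4 at 0.44 (SE 0.237) and Slc1a2 at -0.24 (SE 0.114). The same 5 genes were higher without overlap, with Slc1a2 and Aldh1l1 lower, but in these 10 libraries 25.3% of genes were higher and 13.8% lower without overlap. An adjusted p under 0.05 was reached by 0 of the 8, by limma, and by 1.18% of genes, and 0 of the 8 had an unadjusted p under 0.05 (15.3% of genes).

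**Figure D2:**
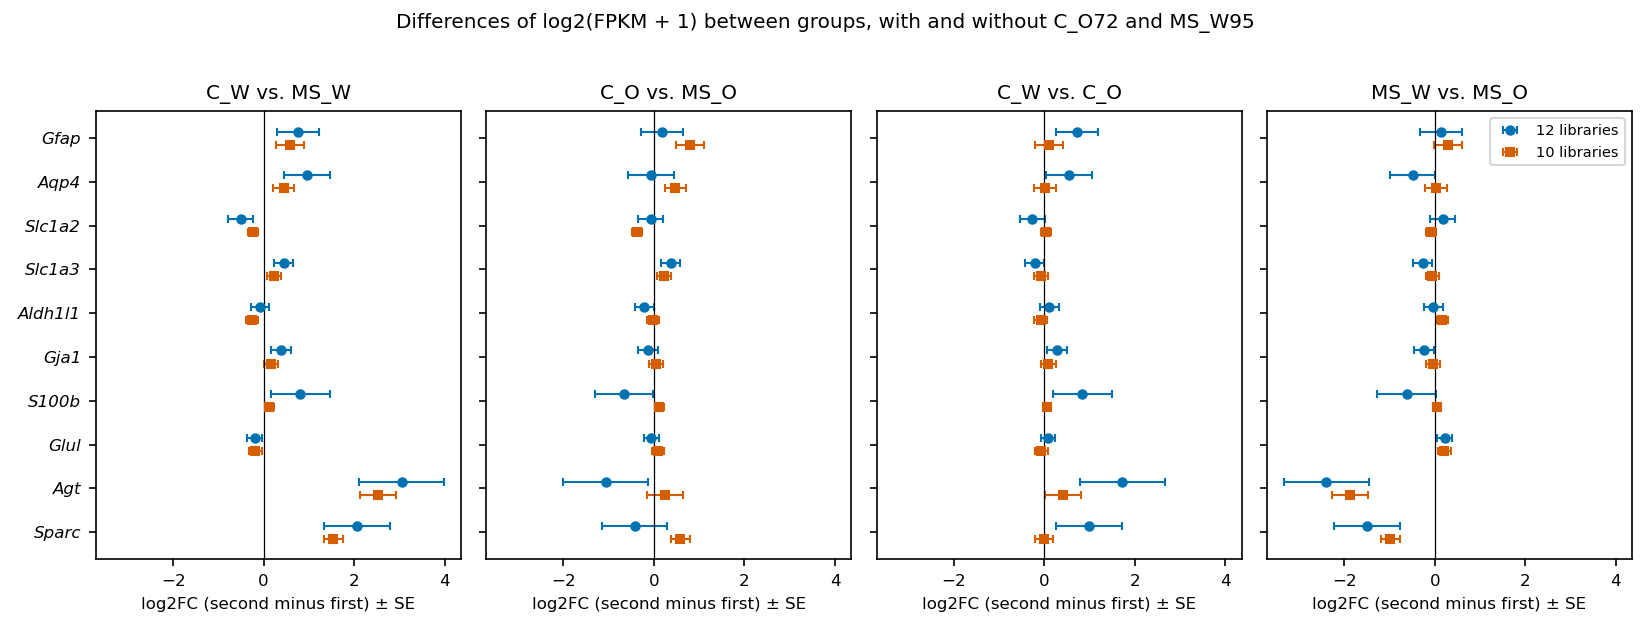
Each panel gives 1 comparison, with the log2FC of the 10 genes (x axis, second group minus first on the log2(FPKM + 1) scale, bars ± SE of the limma fit) for all 12 libraries (circles) and for the 10 without C_O72 and MS_W95 (squares). S100b moves from 0.81 to 0.13 and Aqp4 from 0.96 to 0.44 in C_W vs. MS_W, and the bars of Agt and Sparc are a description since both were chosen by their pattern.

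With krill oil in both groups (C_O vs. MS_O), none of the 8 passed the adjusted threshold by limma, edgeR or DESeq2, and none had an unadjusted p under 0.05 by any of them, where limma gave 0.00467% and 8.88% of tested genes. None of the 10 genes separated these groups, which 8.9% of tested genes did in the higher and 3.29% in the lower direction, and none of the 8 met the DEG criteria (2.82% higher and 0.753% lower). Without C_O72 and MS_W95 the log2FC changed sign for Aqp4 (-0.07 to 0.47), S100b (-0.66 to 0.12), Gja1 (-0.14 to 0.05) and Glul (-0.06 to 0.09). Gfap and Slc1a2 kept their sign but grew in size. With C_O72 the log2FC of Gfap was 0.18 (SE 0.469) and of Slc1a2 -0.07 (SE 0.277). Without it and MS_W95, Gfap was at 0.79 (SE 0.31, limma unadjusted p = 0.0326, adjusted p = 0.342) and Slc1a2 at -0.38 (SE 0.114, limma unadjusted p = 0.00939, adjusted p = 0.329). All 3 MS_O values of Slc1a2 (113, 86.7 and 99.7 FPKM) then lay below the 132 and 127 FPKM of C_O15 and C_O30, a separation in the lower direction that 7.96% of genes showed in those libraries. These 2 of the 8 genes had an unadjusted p under 0.05 there, as did 13.7% of all genes, and 0 of 8 had an adjusted p under 0.05 (0.0142% of all).

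Krill oil without stress (C_W vs. C_O) gave no adjusted p under 0.05 for any of the 8 or for any other tested gene (0% by limma), and no unadjusted p under 0.05 for the 8, where 3.55% of tested genes had one. On the estimated counts edgeR gave 0 and DESeq2 2 of the 8 (Gfap and S100b) at an unadjusted p under 0.05, and neither gave an adjusted p under 0.05. The share of all genes that DESeq2 called was not counted, so these 2 cannot be set against it. The groups overlapped for all 10 genes (4.08% of tested genes were higher and 5.34% lower without overlap), and none of the 8 met the DEG criteria (0.865% higher and 0.897% lower). The S100b log2FC was 0.84 (SE 0.648) with C_O72 and 0.06 (SE 0.094) without it and MS_W95, and that of Gfap was 0.72 (SE 0.469) and 0.1 (SE 0.31). Without these libraries 0 of the 8 had an adjusted (0.00472% of genes) or an unadjusted p under 0.05 (3.98%) by limma.

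Krill oil under CUMS (MS_W vs. MS_O) left all 8 astrocyte genes overlapping, with 0 at an adjusted p under 0.05 by limma, edgeR or DESeq2 and 0 at an unadjusted p under 0.05 by any of these, where limma gave 0.00467% and 6.09% of tested genes. Agt and Sparc, chosen by their pattern, were lower in MS_O without overlap, with log2FC of -2.4 and -1.5 (-1.87 and -0.98 in the 10 libraries), as were 7.66% of tested genes in that direction and 4.64% in the other. None of the 8 met the DEG criteria (1.43% higher and 1.39% lower). Of the 8, the largest difference was that of S100b, at -0.62 (SE 0.648), or 0.05 (SE 0.094) without the 2 libraries. The log2FC of Gfap was 0.14 (SE 0.469) and of Glul 0.22 (SE 0.164), or 0.3 (SE 0.31) and 0.21 (SE 0.14) without them. In the 10 libraries Aldh1l1 was higher in MS_O without overlap (11.9, 11.2 and 13.2 against 10.8 and 10.6 FPKM), as were 9.32% of genes, and 13.1% were lower. There, by limma, 0 of the 8 had an adjusted (0.269% of genes) or an unadjusted p under 0.05 (8.42%).

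Whether CUMS acted differently with and without krill oil was tested by the interaction, the C_O to MS_O difference minus the C_W to MS_W difference. By limma 0 of the 8 had an adjusted p under 0.05 (0% of tested genes) and 0 an unadjusted p under 0.05 (7.23%). By edgeR and by DESeq2 0 passed the adjusted threshold and 1 (S100b) had an unadjusted p under 0.05, with the share of all genes not counted. The estimate for S100b was -1.47 (SE 0.917) by limma with all libraries and -0.01 (SE 0.133) without C_O72 and MS_W95. For Aqp4 it was -1.03 (SE 0.712), and 0.02 (SE 0.335) without them. The median of the 8 was -0.32 with all libraries, against -0.017 over all tested genes, and 0.02 in the 10, against 0.014. In the 10 libraries 0 of the 8 had an adjusted (0.146% of genes) or an unadjusted p under 0.05 (7.46%) by limma.

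C_O72 and MS_W95, from opposite treatment groups, had in common that Agt, Sparc, S100b, Aqp4, Gja1 and Aldh1l1 were above all other 10 libraries. Their mean was 9.5 times that of the other 10 for Agt, 5.48 times for Sparc, 4.61 times for S100b, 3.08 times for Aqp4, 1.59 times for Gja1 and 1.43 times for Aldh1l1. Slc1a2 lay below all others (0.555 times). Gfap, Slc1a3 and Glul were not on 1 side of the rest. These 2 libraries were not alike in Slc1a3, which was lowest of all 12 in C_O72 (35.1 FPKM) and highest in MS_W95 (92.1), nor in Glul, which was highest in C_O72 (558) and lowest in MS_W95 (363). Of all tested genes 16.3% were above and 11.7% below the other 10 in both libraries, and 6.7% were above them with a mean at least 2 times as high.

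The summed markers of the hindbrain and of the cerebellum were highest in the 2 libraries with the most Agt and Sparc, and the hypothalamus sum in the next 2. Summed over 8 genes of the hindbrain and spinal cord, FPKM was 79.5 in C_O72 and 48.5 in MS_W95 and at most 0.454 in each other library. The 8 cerebellum markers summed to 259 and 923 FPKM in C_O72 and MS_W95, against 26.1 to 45.0 elsewhere. Elsewhere most of the sum was Calb1, Zic1 and Zic2, while Pcp2 was at most 0.212 FPKM, Gabra6 0.129, Cbln3 0.196 and Fat2 0.114. The 8 oligodendrocyte markers summed to 1389 and 784 in C_O72 and MS_W95, against 298 to 583. In MS_W31 and MS_W75, the libraries at the middle level, the 8 hypothalamus markers summed to 99.9 and 97 FPKM. Most of this was Avp (32.3 and 59.3), Oxt (20.2 and 32.7) and, in MS_W31, Pmch (34, against 0.88 in MS_W75). Agrp (0.126 and 0.306) and, in MS_W75, Pomc (0.724) were within their ranges in C_W. The next highest sum was 17.2 in C_O30, where Agt was at 6.58 FPKM. The rest had 1.76 to 5.71, among them MS_O78 (5.71), which had the highest Agt of the 8 low libraries (8.24 FPKM), and C_O72 and MS_W95 (5.05 and 4.39). The 8 cortex markers summed to 340 to 393 FPKM in C_W and 232 to 274 in MS_O. They summed to 144 and 136 in MS_W31 and MS_W75, to 49.0 in MS_W95, to 36.4 in C_O72 and to 290 and 390 in C_O15 and C_O30. The study names whole brain for all libraries, and whether each library held the same regions was not tested. The part of region content in the levels of Agt, Sparc or any other member was not tested either.

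Sparc is also a gene of vessels and meninges. The 8 endothelial and mural markers summed to 29.6 to 38.0 FPKM in C_W, 35 to 50.6 in C_O, 35.2 to 45.9 in MS_W and 32.2 to 42.7 in MS_O. The 8 meningeal fibroblast markers summed to 9.07 to 14.2 FPKM in C_W, 17.3 to 26.3 in MS_W and 12.2 to 26.6 in MS_O, and to 15.1, 26.5 and 60.4 in C_O15, C_O30 and C_O72. They were thus higher both in MS_W and in C_O than in C_W without overlap. They were also at 20.4 and 26.6 FPKM in MS_O46 and MS_O78, where Sparc was at 59.9 and 62.3 FPKM. The 8 ependymal and choroid plexus markers were highest in C_O72 and MS_W95 (4831 and 1828 FPKM). They were also at 845, 821 and 629 in C_W1, C_O15 and MS_O13, where Agt was at 3.3, 2.2 and 3.25 FPKM. The 8 microglia markers summed to 103 to 192 FPKM with MS_W95 lowest, and the 8 neuron markers to 1029 to 1446. No marker of these lists was listed without signal in all 12 libraries, and what these cell types add to the members was not tested.

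**Figure D3:**
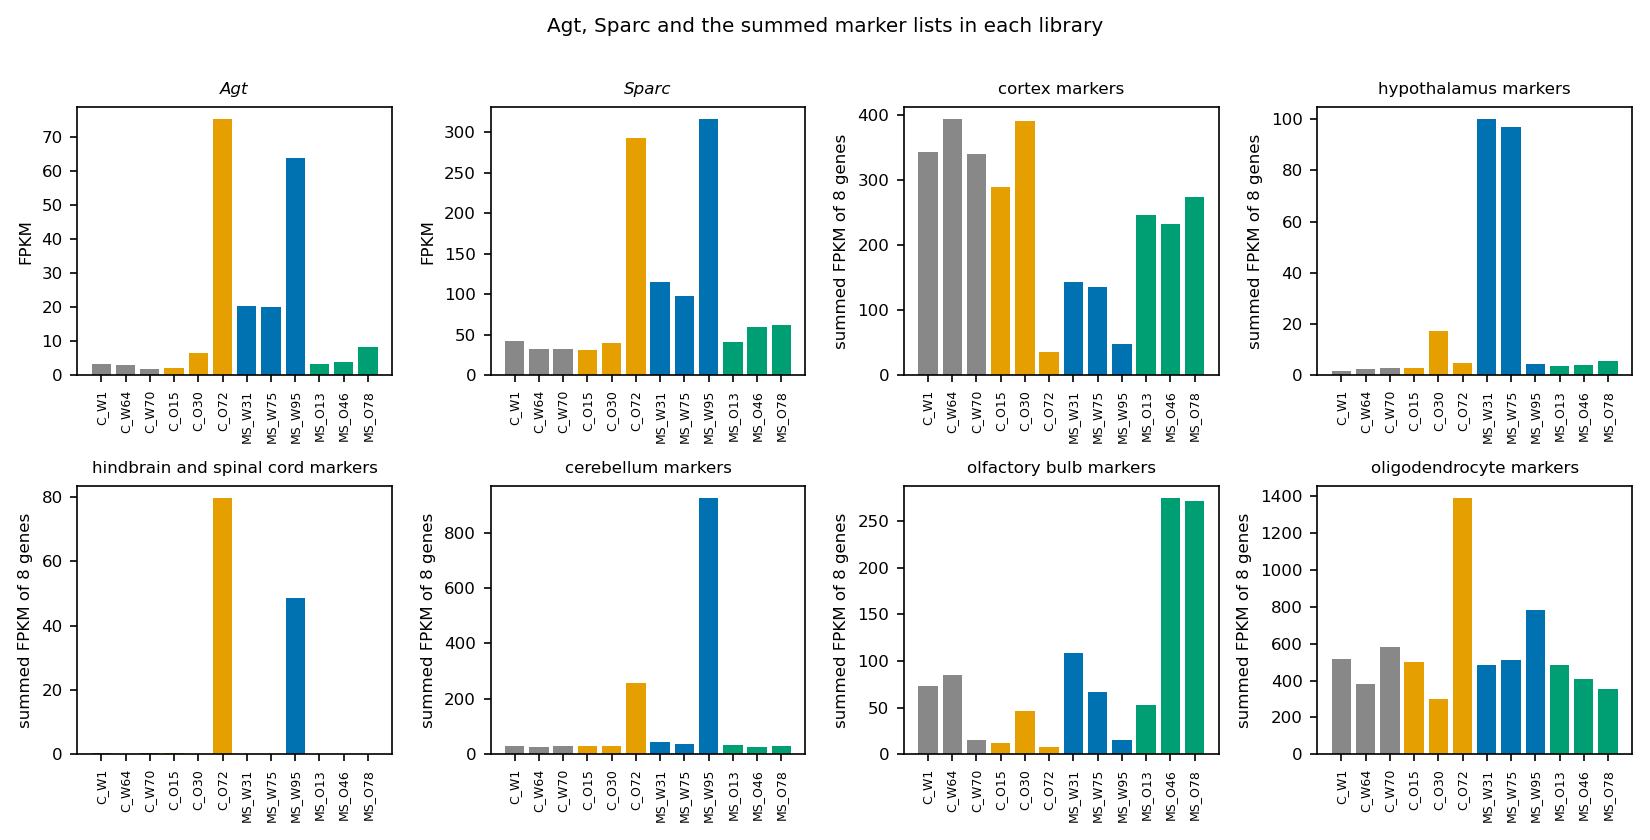
Bars give the FPKM of Agt and Sparc and the summed FPKM of 8 marker genes per list (y axes, linear from 0) in each library (x axis), coloured by group. The 2 libraries with the tallest Agt and Sparc bars, C_O72 and MS_W95, have the highest hindbrain sums (79.5 and 48.5). MS_W31 and MS_W75, the next tallest, have the highest hypothalamus sums (99.9 and 97).

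Gfap, Aqp4 and Slc1a3 differed among the MS_O mice. MS_O46 and MS_O78 were above MS_O13 in Gfap (58.7 and 60.8 against 29.0 FPKM), Aqp4 (16.8 and 18.9 against 10.2), Slc1a3 (65.8 and 60.1 against 44.3) and Gja1 (13.3 and 13.3 against 9.08), and below it in Slc1a2 (86.7 and 99.7 against 113). A list of 8 olfactory bulb markers, added after earlier results were known, summed to 274 and 271 FPKM in MS_O46 and MS_O78, to 53.1 in MS_O13 and to 7.69 to 109 in the other 9 libraries. Its part in these levels was not tested. Fabp7, a fatty acid-binding protein gene of radial glia and astrocytes, was at 46.2 and 79.5 FPKM in MS_O46 and MS_O78 and 16.8 in MS_O13, and Slc6a11, the GABA transporter GAT-3, at 102 and 101 against 33.9. Other astrocyte genes were lower there: Clu (151 and 167 against 182), Ndrg2 (158 and 169 against 170) and Fgfr3 (7.07 and 6.06 against 9.73). Aldh1l1 lay on both sides (11.2 and 13.2 against 11.9).

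Over the 10 libraries without C_O72 and MS_W95, log2(FPKM + 1) of several members ran together. These values describe 10 libraries that share groups and region content, and they carry no test. Pearson's r of Gfap and S100b was 0.97 (Spearman's rho 0.96), and 0.94 without the 2 libraries farthest from the median of Gfap. It was 0.92 for Gfap and Aqp4 (rho 0.84, 0.8 without the 2 farthest) and 0.89 for Slc1a3 and Gja1 (rho 0.87, 0.9 without). Slc1a2 ran against Gfap, at -0.83 (rho -0.79, -0.58 without the 2 farthest).

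For Agt, 7506 genes averaging 5 FPKM or more were ranked by Pearson's r over the same 10 libraries. The 5 most alike were Tmem130 (r 0.983, rho 0.976), Gpx3 (r 0.981), 1810030O07Rik (r 0.972), Baiap3 (r 0.972) and Entpd6 (r 0.97). MS_W31 and MS_W75 were far from the other 8 in Agt, and in those 8 alone r was 0.87 to 0.93 for these 5. Gpx3, a secreted glutathione peroxidase, was at 2.83 to 18.2 FPKM in the 10 libraries and at 23.1 and 19.6 in C_O72 and MS_W95, libraries not used for the ranking. Baiap3 was at 0.501 to 20.6 FPKM in the 10 and at 7.88 and 13.4 in those 2, so it was not high there as Agt was. Tmem130 (97.9 and 102), 1810030O07Rik (10 and 11.2) and Entpd6 (12.2 and 11) were there within their ranges in the 10 too. For Sparc the 5 most alike were Pgm1 (r 0.982), Blcap (r 0.979), Tmem130 (r 0.978), Cpne2 (r 0.978) and Tram1l1 (r 0.973), with r of 0.92 to 0.98 in the 8 libraries. Pgm1, a phosphoglucomutase gene, was at 20.0 to 30.2 FPKM in the 10 libraries and at 53.0 and 41.2 in C_O72 and MS_W95. Blcap (34.1 and 40.7), Tmem130 (97.9 and 102), Cpne2 (5.57 and 7.99) and Tram1l1 (7.99 and 8.61) were there within their ranges in the 10. Tmem130 was the only gene in both lists. For the mean of the other 8 members they were Axl (r 0.959), Bcl6 (r 0.958), Czib (r 0.958), Amt (r 0.957) and Acsbg1 (r 0.953). Acsbg1, an acyl-CoA synthetase gene of astrocytes, was at 36.9 to 59.6 FPKM in the 10 libraries and at 90.5 and 85.4 in C_O72 and MS_W95. Czib was there at 5.04 and 5.21, within its range in the 10 (4.78 to 6.88). Axl was at 12.6 and 11.3 (8.07 to 12.4 in the 10), Bcl6 at 6.32 and 10 (4.08 to 6.32) and Amt at 10.9 and 13.9 (7.94 to 11.5).

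Of 25 other astrocyte genes, 0 passed an adjusted p of 0.05 by limma between C_W and MS_W, and 1, the bicarbonate transporter gene Slc4a4, had an unadjusted p under 0.05 (log2FC 0.93, SE 0.378), where 10.5% of tested genes had one. The median log2FC of the 25 was 0.29, and 5 were higher without overlap (Ndrg2, Mlc1, Slc4a4, Slc6a11 and Fabp7) and 0 lower, against 16.3% and 8.22% of tested genes. In the 10 libraries the median was 0.1, and again 0 passed the adjusted threshold and 1, Slc4a4 (0.55, SE 0.199), the unadjusted (15.3% of genes), with 6 higher and 1 lower without overlap (25.3% and 13.8%). The 3 most abundant, Cst3, Sparcl1 and Aldoc, had log2FC of 0.03, 0.05 and 0.42, or 0.31, -0.17 and -0.07 in the 10 libraries. Aldoc, the aldolase of astrocytes and Purkinje cells, was at 649 and 603 FPKM in C_O72 and MS_W95 and at 198 to 260 in the other 10. Mfge8, a gene of telencephalic astrocytes, went the other way there, at 10.3 and 13.3 FPKM against 18.1 to 28.1, and so did Cst3, the cystatin C gene, at 546 and 425 against 556 to 830.

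**Figure D4:**
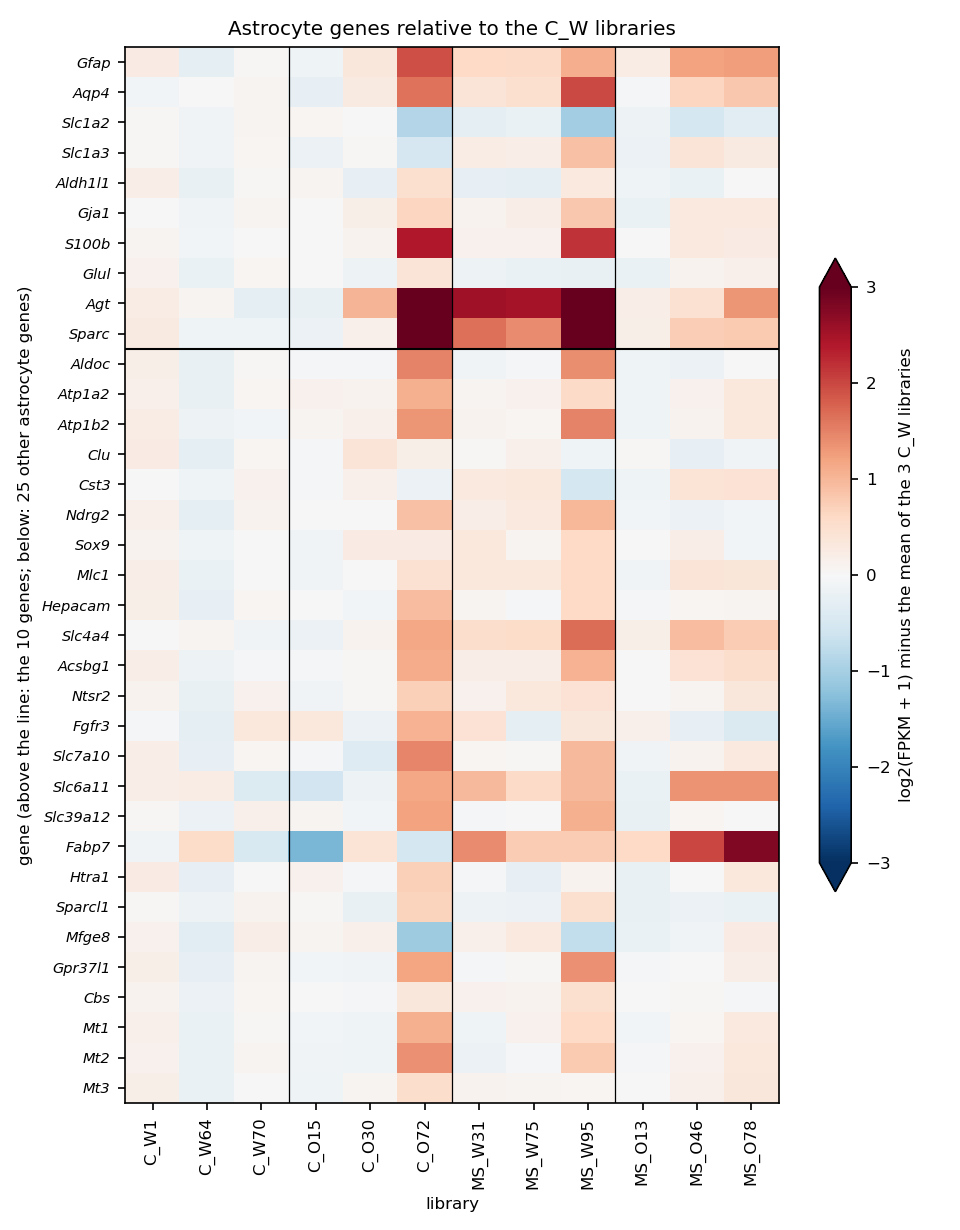
Colours give log2(FPKM + 1) minus the mean of the 3 C_W libraries for the 10 genes (above the line) and 25 other astrocyte genes (rows) in the 12 libraries (columns), cut at 3 in either direction. C_O72 and MS_W95 stand out in most rows, Slc1a2, Mfge8 and Cst3 are lower in both than in any other library, and Agt and Sparc are high in MS_W31 and MS_W75 as well.

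Agt is the substrate of the renin-angiotensin system. Of 14 other genes of that system, 12 passed the filter, and between C_W and MS_W 0 passed the adjusted and 0 the unadjusted threshold by limma (median log2FC 0.13), where 10.5% of tested genes passed the latter. Without C_O72 and MS_W95, 0 of the 12 passed the adjusted threshold by limma and 2 the unadjusted (15.3% of genes), both higher in MS_W: Mas1 (log2FC 0.61, SE 0.209) and Mme (0.53, SE 0.212). Mme, a peptidase gene, met the DEG criteria in the higher direction there, as did 3.42% of genes, at 0.181 to 0.412 FPKM in C_W and 1.03 and 0.644 in MS_W31 and MS_W75. Ren1, the renin gene, was at 0.0001 to 0.162 FPKM in all 12 libraries and was below the filter. Ace, which makes angiotensin II, was at 2.08 to 5.81 FPKM in C_W and 3.71, 3.93 and 8.71 in MS_W31, MS_W75 and MS_W95, and reached 17.5 in C_O72. The angiotensin II receptor gene Agtr1a was at 0.141 to 0.404 FPKM and Agtr2 at 0.0906 to 0.441 in 10 libraries, with 1.05 and 1.21 in C_O72 and MS_W95. Mas1, the receptor of angiotensin-(1-7), was at 3.92 to 8.03 FPKM in 10 libraries and at 0.221 and 0.134 in C_O72 and MS_W95, where Agt was highest. Agtr1a alone of the list had an unadjusted p under 0.05 between C_O and MS_O with all libraries (log2FC -0.17, SE 0.075, or -0.18, SE 0.078 in the 10), and Anpep alone between C_W and C_O (0.37, SE 0.129, or 0.3, SE 0.136). In these 2 comparisons 8.88% and 3.55% of tested genes had one by limma. Ctsd and Atp6ap2, the most abundant of the list, had log2FC of 0.09 and -0.04 between C_W and MS_W.

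Of the 7 relatives of Sparc, 0 passed the adjusted threshold between C_W and MS_W by limma and 2 had an unadjusted p under 0.05, both higher: the proteoglycan genes Spock3 (log2FC 0.85, SE 0.192) and Spock2 (0.35, SE 0.145, or 0.23, SE 0.068 in the 10 libraries). An unadjusted p under 0.05 was reached by 10.5% of tested genes. Spock3 was at 7.32 to 8.51 FPKM in C_W and at 15.5, 18.5 and 11.6 in MS_W31, MS_W75 and MS_W95. In the 10 libraries Spock3 passed the adjusted threshold (log2FC 1.02, SE 0.166, limma adjusted p = 0.0285), as 1.18% of genes did. There 3 of the 7 had an unadjusted p under 0.05, Fstl1 (0.35, SE 0.144) being the third, as had 15.3% of genes. With all libraries Smoc1 and Fstl1 were also higher without overlap, so that 4 of the 7 were (16.3% of tested genes), and Spock1 and Smoc2 were lower (8.22%). The closest relative, Sparcl1, was at 563 to 893 FPKM in MS_W and 571 to 687 in C_W, and overlapped.

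Around the glutamate transporters, 11 genes of the glutamate and glutamine cycle were read. Between C_W and MS_W 0 passed the adjusted threshold by limma, and 1, Slc17a7, the vesicular glutamate transporter of cortical neurons, had an unadjusted p under 0.05 (log2FC -1.82, SE 0.709), where 10.5% of tested genes had one. Slc17a7 is also on the cortex list. It was at 254 to 290 FPKM in C_W and 106, 100 and 41.5 in MS_W31, MS_W75 and MS_W95. In the 10 libraries Slc17a7 passed the adjusted threshold (log2FC -1.39, SE 0.229, limma adjusted p = 0.0306), as 1.18% of genes did. There 3 more of the 11, Slc1a6, Glud1 and Slc17a6, had an unadjusted p under 0.05 (15.3% of genes), all higher in MS_W. Slc1a6, the transporter of Purkinje cells, was at 24.6 and 56.0 FPKM in C_O72 and MS_W95 and at 3.12 to 5.24 in the other 10. Slc38a3, the transporter by which astrocytes release glutamine, had a log2FC of 0.87 (SE 0.222) between C_O and MS_O, with an unadjusted limma p of 0.00272 and an adjusted p of 0.479 (0.97, SE 0.252, adjusted p = 0.329 in the 10 libraries), and was at 13.6, 26.4 and 27.3 FPKM in MS_O.

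Of 11 partners in gap junctions and in water and potassium handling, 0 passed the adjusted threshold between C_W and MS_W by limma and 1, Slc4a4, had an unadjusted p under 0.05 (10.5% of tested genes), with a median log2FC of 0.4. The median was 0.1 in the 10 libraries, where Slc4a4 and Gjb6 (-0.43, SE 0.116) had an unadjusted p under 0.05 by limma (15.3% of genes) and 0 an adjusted one. Kcnj10, the potassium channel Kir4.1, was at 34.5 to 41.1 FPKM in C_W and 43.6, 37.5 and 76.7 in MS_W31, MS_W75 and MS_W95, and at 125 in C_O72. Gjb6, the connexin 30 gene, was at 14.7 to 18.6 FPKM in C_W and 11.9 and 12.3 in MS_W31 and MS_W75, but at 22.6 in MS_W95.

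Genes known to be induced in reactive astrocytes were read beside Gfap. Of 20, 19 passed the filter, and 0 passed the adjusted or the unadjusted threshold between C_W and MS_W by limma (median log2FC 0.15), as was so for the 16 that passed the filter in the 10 libraries (median 0.09). Of all tested genes 0.00467% passed the adjusted and 10.5% the unadjusted threshold, or 1.18% and 15.3% in the 10 libraries. Vim, the other intermediate filament gene of reactive astrocytes, was at 5.01 to 6.31 FPKM in C_W and 5.56, 5.29 and 22.7 in MS_W31, MS_W75 and MS_W95. Serpina3n was at 6.38 to 7.07 FPKM in C_W and 8.69, 6.03 and 9.52 in the same MS_W libraries. S100a10 was at 16.6 to 22.7 FPKM in C_W and 15.6 to 20.0 in MS_W. In C_O72 Vim and Serpina3n were at 14.0 and 18.6 FPKM, where Gfap was at 98.1. With all libraries Cxcl10 alone had an unadjusted p under 0.05 between C_O and MS_O and between MS_W and MS_O (log2FC 0.24, SE 0.08 in both, or 0.24 and 0.25, SE 0.096 in the 10 libraries), at 0.0978 to 0.373 FPKM in MS_O, and Cp alone between C_W and C_O (0.41, SE 0.166, or 0.22, SE 0.106). By limma 8.88% of tested genes had one between C_O and MS_O, 6.09% between MS_W and MS_O and 3.55% between C_W and C_O.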

How the data were processed

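Per the submitters' notes and the methods of the study, reads were trimmed (cutadapt 1.9), aligned with HISAT2 2.0.4 and assembled with StringTie 1.3.4d, and Ballgown gave expression values. The authors deposited FPKM and estimated count columns for each library. The estimated counts are proportional to FPKM times transcript length within a library (median deviation 0.0133% over 814 single-transcript genes), so they follow coverage and were rounded for count tests. The kit marks strand, and the strand setting of the counting is not given in the sources used here. Of the genes in the table, 93.9% have the same start and end in GENCODE M21.

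For the main test, the 4 groups were fitted together in limma 3.58.1 under R 4.3.3 (lmFit and trended eBayes), using log2(FPKM + 1) of the 21393 genes averaging 0.1 FPKM or more, two-sided, with Benjamini-Hochberg adjustment over all tested genes. It was tested on simulated data with independent noise, in which no library stood apart as C_O72 and MS_W95 do. P-values measure the spread between the libraries, 1 per mouse, which holds any difference in region content together with that between mice. Alternatives were a pseudocount of 0.1, no filter, an average of 1 FPKM or more, quantile normalization, median centring, only the 2 groups compared, a linear model with Ballgown's library size covariate, leaving out each library, leaving out C_O72 and MS_W95, and edgeR 4.0.16 and DESeq2 1.42.0 on estimated counts.

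The members and gene lists were chosen with earlier results of these data known, and the olfactory bulb list was added later. A striatum list of 8 markers, added at the same time, is given among the other observations. Named are the 10 members, the up to 3 most abundant genes of a list and the 5 genes most like Agt, Sparc and the mean of the other 8. Other named list genes were chosen after their values were seen. Results for 2 list genes are not reported here, and the lists are counted without them. Promoter windows were RefSeq's, with entries matched for 9 of the 10 members. Python 3.11.15 with pandas 2.3.3 and matplotlib 3.10.9 served for tables and plots. Behaviour and lipid data were not analysed here.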

Additional observations from a re-analysis of the deposited data

How the results depend on the processing

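No paired analysis was possible because the groups share no mouse number. The counts of the 8 astrocyte genes past the adjusted threshold were 0 in all 4 comparisons and the interaction under every alternative run. The count meeting the DEG criteria was 0 in the main fits. In C_W vs. MS_W it was 1 (Aqp4) by DESeq2 and 0 to 1 when 1 library was left out (Aqp4 without C_O72). In C_W vs. C_O it was 2 (Gfap and S100b) by DESeq2 and 0 to 1 with 1 library left out (Gfap without C_O15). The share of all genes meeting the criteria by DESeq2 or with 1 library left out was not counted. The median log2FC of the 8 in C_W vs. MS_W, added after seeing the data, was 0.41 with all libraries, 0.15 without MS_W95 and in the 10 libraries, between 0.15 and 0.52 over all libraries left out in turn, and -0.62 with the library size covariate. The median over all 10 genes, which includes Agt and Sparc, chosen for this difference, went from 0.6 to 0.19 without MS_W95 and in the 10 libraries (0.19 to 0.7 with 1 library left out), and to -0.39 with the covariate. The median interaction went from -0.32 to 0.02 for the 8 and from -0.55 to 0.0 for the 10 without C_O72 and MS_W95. The covariate also turned the C_W vs. MS_W log2FC of Gfap to -1.17, of Gja1 to -0.28 and of S100b to -0.51. It moved that of Aldh1l1 from -0.08 to -1.52, of Agt from 3.05 to 1.02 and of Sparc from 2.06 to 0.4. The covariate is computed from FPKM and is not the count total, in which C_W was above MS_W throughout. Aldh1l1 ran from -0.26 to 0.02 with 1 library left out. In C_O vs. MS_O, Gfap was -0.45 with the covariate, -0.08 by edgeR, -0.09 by DESeq2 and -0.25 to 0.79 with 1 library left out, and Slc1a2 was 0.19 with the covariate and -0.38 to 0.1 with 1 left out. The cause of these changes was not tested. Neither the covariate model nor the fit of 2 groups applies to the interaction.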

Other observations

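The 8 striatum markers summed to 358 and 545 FPKM in MS_W31 and MS_W75, to 67.7 in MS_W95, to 50.7 to 105 in C_W, to 179, 271 and 53.2 in C_O15, C_O30 and C_O72, and to 362, 197 and 157 in MS_O13, MS_O46 and MS_O78. Agt was at 20.5 and 20 FPKM in MS_W31 and MS_W75, at 3.25 in MS_O13 and at 63.8 in MS_W95. The part of striatum content in the level of Agt was not tested. The ratio of S100b to Aldh1l1 was 21.1 and 20.2 in C_O72 and MS_W95 and 5.1 to 8.03 in the other 10 libraries, and the ratio of Sparc to Slc1a2 was 4.33 and 5.25 there and 0.241 to 1.13 elsewhere.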
